A study of Mus musculus with 4 samples.

Results

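The 9 genes described here encode the core machinery that copies and transcribes mitochondrial DNA: TFB1M, TFB2M, TFAM, POLRMT, POLG, POLG2, PEO1, SSBP1 and MTERF. They were found as all non-control probes whose gene name on the array was one of these symbols, which gave 16 probes of 41000, and they stand among 17874 named genes that could be tested. Of the 9 genes, 4 had 1 probe and 5 had several. RNA came from H460, an established line of human lung carcinoma cells, kept for 4 h with 250 µM farnesol (FOH), an isoprenoid alcohol, or with its vehicle dimethyl sulphoxide (DMSO). A first and a second pair of RNAs, each farnesol against vehicle, were each put on 2 arrays with the dyes exchanged, so the 4 arrays are 2 replicates. The labels do not say whether the RNA pairs came from separate cultures, so the p-values measure only the spread between these samples, which may be technical. The cells are 1 line in culture at 1 dose and 1 time. The sample labels name the mouse as organism, whereas the protocols describe a human line and gene symbols on the array are human. The labels write the RNAs as codes, and the code beginning with 4H was taken as farnesol, on the basis of the heading of the authors' deposited table, whose ratios are farnesol over vehicle.

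Mitochondrial DNA is a small circular genome that encodes subunits of the respiratory chain together with the ribosomal and transfer RNAs needed to make them. It is read from promoters in its control region by a dedicated RNA polymerase, POLRMT, which needs the packaging protein TFAM and the initiation factor TFB2M to open the promoter. It is copied by the polymerase POLG with its accessory subunit POLG2, behind the helicase PEO1 (Twinkle, now named TWNK) and with the single-strand binding protein SSBP1. All of these proteins are made from nuclear genes and imported, so the arrays report the supply of their messenger RNAs and not their activity.

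Each value below is a log2 ratio of farnesol over vehicle after background correction and normalization, where -1 means 2-fold lower with farnesol, and ± gives the SD over both replicates (n = 2). Of the probe spots, 82.4% to 92.9% were well above background in a channel. With 2 replicates, all estimates are imprecise. Dye-swapped arrays of a replicate correlated across features at r = 0.943 and 0.942, and arrays of different replicates at 0.634 to 0.684. The 3 keratin genes taken as epithelial markers (KRT8, KRT18 and KRT19) were well above background in the vehicle channel on 4 of 4 arrays. So were 7 of 9 markers of leukocytes, fibroblasts and endothelium, PDGFRB being so on none, and the log2 ratios of those tested ran from -0.01 to 0.31. The keratins had log2 ratios of -0.20 (KRT8), -0.27 (KRT18) and -0.65 (KRT19). Of the 16 member probes, 15 were bright enough to be tested. A dim second SSBP1 probe was not well above background on any array. No member spot was saturated or marked as an outlier. Where a gene had several tested probes, the brightest stood for it, and the others are given beside it.

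Messenger RNA of TFB2M, the initiation factor, was the lowest of the group with farnesol, at 3.20-fold below vehicle, and its relative TFB1M and the helicase PEO1 followed at 1.67-fold and 1.56-fold below. SSBP1 was 1.28-fold lower, and the polymerase subunits, MTERF, POLRMT and TFAM lay closer to 0. With limma's test over all 28302 features, 0 of the 9 genes passed an adjusted p of 0.05, where 0.0106% of all features did. Those features were all higher. Limma called 0 features of the whole array lower, and its lowest adjusted p for a lower feature was 0.179. The absence of lower calls here and in the lists below is thus not particular to these genes. At an unadjusted limma p under 0.05, 5 of the 9 genes were lower (TFB2M, TFB1M, PEO1, SSBP1 and POLG), against 10.8% of all features, and 0 were higher, against 3.71%. The genes' median log2 ratio was -0.27, with -0.21 in replicate 1 and -0.37 in replicate 2, and that of all features was 0.01. Lower in both replicates were 6 of the 9 genes, against 30.2% of all features, and the same 6 were lower on 4 of 4 arrays, against 21.9%. Higher in both replicates was 1 gene, TFAM, against 35.4%, and 0 were higher on 4 arrays, against 20.9%. TFAM was higher by its brightest probe only, and its other probes were lower on all arrays. The mean log2 ratio was below 0 for 7 of the 9, against 44.2% of all features. Because the members were chosen with earlier results of these data known, these counts beside all features are a description only.

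**Figure D1:**
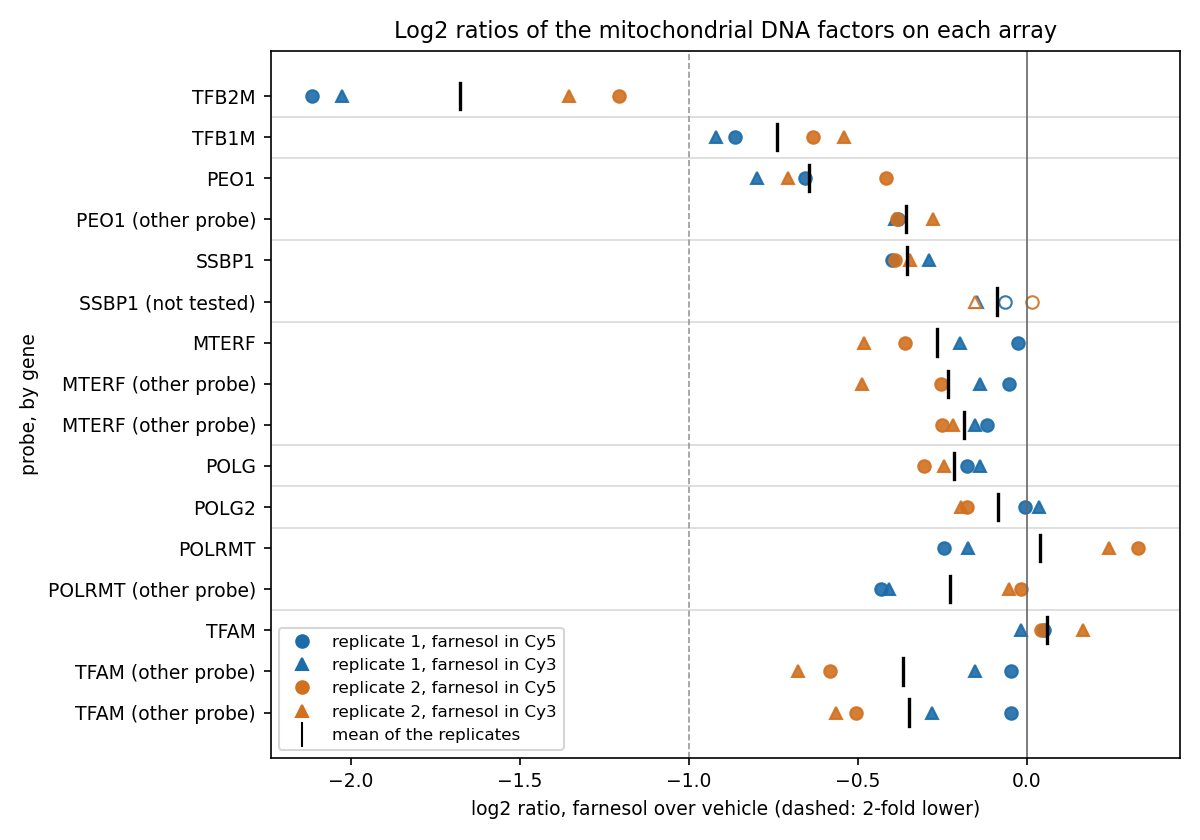
Log2 ratios of farnesol over vehicle for the 16 probes of the 9 genes, 1 row per probe, with 1 point per array (colour for the replicate, shape for the dye of farnesol, open symbols for the probe that was not tested) and a bar at the mean of the 2 replicates. TFB2M alone lies beyond the dashed line of 2-fold on every array, and the points of POLRMT's brighter probe fall on both sides of 0.

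TFB2M, together with POLRMT and TFAM, starts transcription of mitochondrial DNA. Its probe, A_23_P45940, gave log2 ratios of -2.12 and -2.03 on the arrays of replicate 1 and of -1.21 and -1.36 on those of replicate 2. All 4 arrays were lower, the replicates did not overlap, and replicate 1 had the more negative values. Before normalization, its spot minus local background read 1606, 1516, 1464 and 1292 scanner units in the vehicle channel. The farnesol channel of the same arrays read 303, 305, 371 and 317. No farnesol reading came near the lowest vehicle reading, whichever dye carried farnesol.

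The mean log2 ratio of TFB2M was -1.68 ± 0.56 (SD, n = 2), with a 95% interval of -2.48 to -0.88 from limma and an adjusted p of 0.207. It was the 13th lowest of 28302 features. It was the 1 member of 9 that was at least 2-fold lower in both replicates and lower on all arrays, against 0.240% of all features (68 features), while 0 members were as much higher, against 0.654%. The authors' deposited table lists this probe at a ratio of 0.212, or 4.71-fold lower. That table follows the scanner software's ratios of replicate 1 (r = 0.9999 across 7018 probes, against 0.832 for replicate 2), so it is no further replicate. Only 6 member probes, from 5 of the 9 genes, are among its 7018 probes. TFAM, POLG, POLG2, MTERF and POLRMT's brightest probe are not listed in it.

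TFB1M is the relative of TFB2M that works mainly as a methyltransferase of the small mitochondrial ribosomal RNA. Its probe, A_23_P93499, gave log2 ratios of -0.86 and -0.92 in replicate 1 and of -0.63 and -0.54 in replicate 2. Again all arrays were lower and replicate 1 was the lower of the pair. The spot read 218, 233, 187 and 155.9 units over background with vehicle, and 83.9, 106, 60.1 and 73.5 with farnesol.

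The mean log2 ratio of TFB1M was -0.74 ± 0.22 (95% interval -1.09 to -0.39, limma adjusted p = 0.206). Of all features, 1.14% had a lower value. This is a dim spot, and the offset of 50 added in the background correction shrinks such ratios. With an offset of 0 its value was -1.03, and it was -1.07 when the scanner's own processed signals were used. The authors' deposited table lists it at a ratio of 0.416, or 2.40-fold lower.

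TFB2M lay below TFB1M on each array. The difference of their log2 ratios was -1.18 in replicate 1 and -0.69 in replicate 2, a mean of -0.94 ± 0.34. An exact two-sided permutation test by sign flips of these 2 differences gave p = 0.5, the smallest that 2 replicates allow. The difference was smaller in each replicate with an offset of 0. There TFB2M and TFB1M were -2.20 and -1.21 in replicate 1, and -1.30 and -0.85 in replicate 2.

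**Figure D2:**
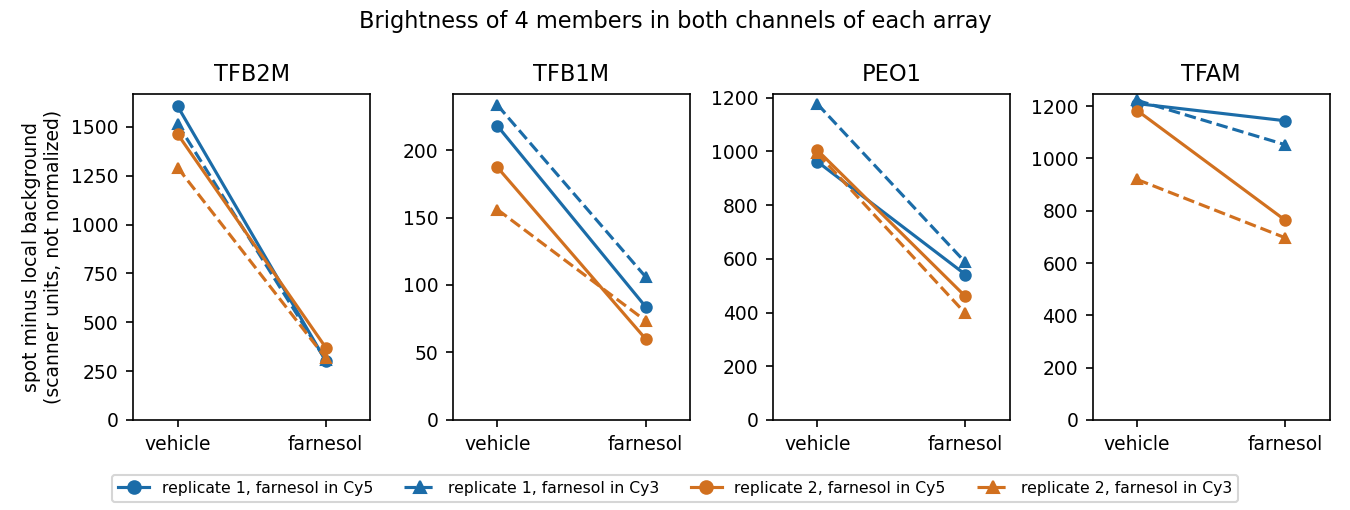
Spot brightness minus local background, in scanner units before any normalization, in the vehicle and farnesol channels of each of the 4 arrays for TFB2M, TFB1M, PEO1 and the brightest TFAM probe, with axes starting at 0. TFB2M reads 1292 to 1606 units in the vehicle channels and 303 to 371 in the farnesol channels, while TFAM's channels differ less in replicate 1 than in replicate 2 before normalization.

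TFAM coats mitochondrial DNA into nucleoids and bends the promoter for POLRMT. Its brightest probe, A_23_P414771, gave log2 ratios of 0.05 and -0.02 in replicate 1 and of 0.04 and 0.17 in replicate 2. These values straddle 0, with a mean of 0.06 ± 0.06 (95% interval -0.14 to 0.26, limma adjusted p = 0.702). The other TFAM probes, A_23_P202258 and A_24_P134727, are designed to a different transcript record of the gene, and both were lower on all arrays. A_23_P202258 gave -0.10 in replicate 1 and -0.63 in replicate 2. A_24_P134727 gave -0.16 and -0.54. The mean over the 3 TFAM probes was -0.22, and its brightest probe gave -0.15 when arrays were centred on their median without loess, so the sign of TFAM depended on the probe and on the normalization.

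POLRMT, the mitochondrial RNA polymerase, had log2 ratios of -0.24 and -0.17 in replicate 1 and of 0.33 and 0.24 in replicate 2 from its brightest probe, A_32_P98847. The replicates lay on opposite sides of 0 and the mean was 0.04 ± 0.35 (95% interval -0.48 to 0.56, limma adjusted p = 0.932). Its other probe, A_23_P131096, gave -0.42 and -0.03, and was also higher in replicate 2 than in replicate 1. The authors' deposited table, which follows replicate 1, lists that probe at a ratio of 0.735, or 1.36-fold lower. With median centring the brightest probe's mean was -0.14, and over the mean of its probes -0.09, so the sign of POLRMT also depended on the setting.

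MTERF binds mitochondrial DNA within a leucine transfer RNA gene and can stop transcription there. Its brightest probe, A_23_P408108, gave log2 ratios of -0.03 and -0.20 in replicate 1 and of -0.36 and -0.48 in replicate 2, a mean of -0.27 ± 0.22 (95% interval -0.62 to 0.09, limma adjusted p = 0.444). The other 2 probes had means of -0.23 and -0.18. All 3 probes were below 0 on each array and lower in replicate 2, and all were dim, at no more than 188 units over background with vehicle. The dimmest, A_32_P232704, was well above background with farnesol on 2 of 4 arrays.

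PEO1, the Twinkle helicase that unwinds mitochondrial DNA ahead of its polymerase, was the lowest of the replication factors. Its brightest probe, A_24_P258073, gave log2 ratios of -0.66 and -0.80 in replicate 1 and of -0.42 and -0.71 in replicate 2. The replicates overlapped, and the 4 values were all lower. The mean was -0.64 ± 0.12 (95% interval -0.89 to -0.40, limma adjusted p = 0.192), and 1.79% of all features were at or below it. The other, dimmer PEO1 probe, A_23_P138461, gave -0.39 and -0.33 (mean -0.36 ± 0.04). The authors' deposited table lists the PEO1 probes at 1.68-fold and 1.52-fold lower.

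SSBP1, which holds the displaced strand open during replication, had the tightest values. Its tested probe, A_23_P31536, gave -0.40, -0.29, -0.39 and -0.35 on the 4 arrays, a mean of -0.35 ± 0.02 (95% interval -0.53 to -0.18, limma adjusted p = 0.211). Both values of replicate 2 lay between those of replicate 1. The authors' deposited table lists this SSBP1 probe at 1.24-fold lower.

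POLG, the catalytic subunit of the replicative polymerase, gave -0.18 and -0.14 in replicate 1 and -0.30 and -0.24 in replicate 2. The mean was -0.22 ± 0.08 (95% interval -0.43 to -0.00, limma adjusted p = 0.336). POLG2, the subunit that keeps POLG on its template, gave -0.01 and 0.04 in replicate 1 and -0.18 and -0.20 in replicate 2. Its mean was -0.09 ± 0.14 (95% interval -0.35 to 0.18, limma adjusted p = 0.692). The polymerase subunits were thus measured at 1.16-fold and 1.06-fold lower, and PEO1 lay below POLG by 0.43 ± 0.20 on the log2 scale.

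From the lowest up, the order of the brightest probes' log2 ratios was TFB2M, TFB1M, PEO1, SSBP1, MTERF, POLG, POLG2, POLRMT and TFAM. Of the 8 steps between neighbours in this order, 3 were larger than their own SD over the replicates: TFB2M to TFB1M, PEO1 to SSBP1, and POLG to POLG2. The order was set by the same means, so the direction of each mean step was given in advance. As processed here, the step from PEO1 to SSBP1 held for PEO1's brightest probe only, since its other probe, at -0.36, lay close to SSBP1 at -0.35. That other probe was dim, at 108 to 139 units over background with vehicle, and the offset shrinks the ratios of dim spots. In the authors' deposited table, which follows replicate 1, its log2 ratio is -0.60 and that of SSBP1 is -0.31, so the step is present there. TFB1M and PEO1 differed by 0.10 on the log2 scale with an SD of 0.10. The steps from SSBP1 to MTERF, from MTERF to POLG, from POLG2 to POLRMT and from POLRMT to TFAM were also within their SD, and their sign differed between the replicates. The order depended on the processing too. TFB1M and PEO1 were -1.03 and -0.63 with an offset of 0, but -0.78 and -0.83 under median centring. With an offset of 0, MTERF (-0.35) lay below SSBP1 (-0.31). By these probes the transcription factors spanned the whole range, with TFB2M lowest and TFAM highest, while the replication factors lay between -0.64 and -0.09. TFAM's place depended on the probe, as the mean over its probes was -0.22.

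**Figure D3:**
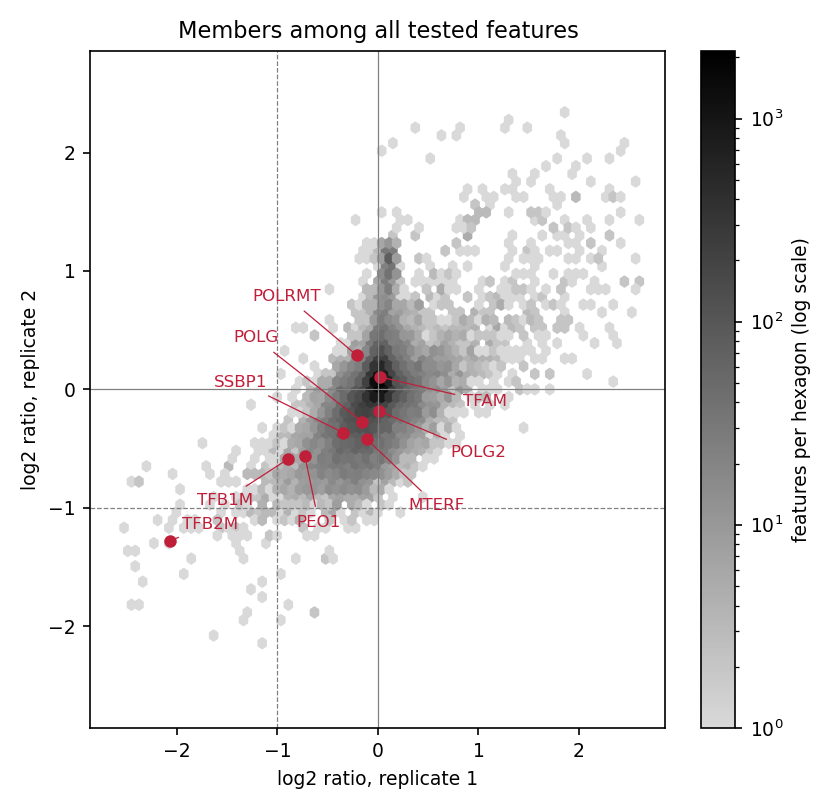
Log2 ratios of replicate 1 (x axis) and replicate 2 (y axis) for 28203 features in grey, shaded by their number on a log scale, with the 9 genes in red; 99 features beyond the axis limits are not drawn. TFB2M lies in the corner that is at least 2-fold lower in both replicates, and TFB1M and PEO1 lie on the lower side of both axes without reaching either dashed line.

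Genes with the pattern most like that of TFB2M were sought by the Euclidean distance over the 4 arrays' log2 ratios, among 17839 other named genes. The nearest was RTN4IP1, which encodes a mitochondrial oxidoreductase, with -2.10, -2.08, -1.14 and -1.19 (distance 0.19, mean -1.63 ± 0.65, limma adjusted p = 0.223). C10orf7 followed with a mean of -1.59 ± 0.64 (distance 0.23, limma adjusted p = 0.224), and ARL6IP5, a membrane protein of the endoplasmic reticulum, with -1.77 ± 0.65 (distance 0.23, limma adjusted p = 0.214). Since they were chosen by these values, their likeness is a description only.

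Other genes of the pathway were taken from 4 lists, and many of their members were matched by older symbols, 8 of which were added after the array's names were seen. The lists too were chosen with earlier results of these data known, so their counts beside all features are a description only. In the list of 20 further factors of mitochondrial transcription and RNA processing, limma called 0 genes, and 8 were lower and 0 higher at an unadjusted p under 0.05, against 10.8% and 3.71% of all features. Lower in both replicates were 14 and higher in both was 1, against 30.2% and 35.4%, with a median log2 ratio of -0.26. The lowest were PNPT1, the polynucleotide phosphorylase that degrades mitochondrial RNA (-0.99 ± 0.14, limma adjusted p = 0.191), and PTCD3, a protein of the mitochondrial ribosome (-0.66 ± 0.06, limma adjusted p = 0.191). A second PNPT1 probe gave -0.10 and a second PTCD3 probe -0.11. The highest were PRORP, the nuclease of mitochondrial RNase P (0.12 ± 0.08), whose second probe gave -0.68, and SLIRP, an RNA-binding partner of LRPPRC (-0.03 ± 0.11).

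The relatives and partners of the members in that list are named here after their values were seen. TEFM, the elongation factor of POLRMT, had -0.39 ± 0.16, with -0.67 from its other probe. MTERF2, MTERF3 and MTERF4, which share the fold of MTERF, had -0.21 ± 0.11, -0.22 ± 0.44 and -0.27 ± 0.20. The other MTERF3 probe gave -0.20, and the other 3 probes of MTERF4 gave 0.09, -0.17 and -0.03, all nearer to 0 than its brightest. MTERF3 was 0.09 in replicate 1 and -0.53 in replicate 2, so its mean does not describe either replicate. Limma's adjusted p ran from 0.270 for TEFM to 0.667 for MTERF3.

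The list of 30 genes for nucleotide supply, nucleoids and upkeep of mitochondrial DNA had a median of -0.13. Limma called 0 of them, 6 were lower and 0 higher at an unadjusted p under 0.05, against 10.8% and 3.71% of all features. In both replicates 18 were lower and 3 higher, against 30.2% and 35.4%. The lowest were FEN1, a flap nuclease (-0.54 ± 0.09, limma adjusted p = 0.197), and APEX1, an abasic site nuclease (-0.52 ± 0.05, limma adjusted p = 0.192), both of which also serve nuclear DNA. Their other probes gave -0.42 for FEN1 and -0.37 for APEX1. The highest were MUTYH, an adenine glycosylase (0.14 ± 0.14), and CLPX, a mitochondrial chaperone of the AAA+ family (0.11 ± 0.25). CLPX was 0.29 in replicate 1 and -0.07 in replicate 2, and its other probe gave -0.27. The other MUTYH probe gave 0.05.

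Nuclear regulators of mitochondrial biogenesis were centred near 0, with a median of 0.04 over 17 genes and of -0.02 in replicate 2. Limma called 0, with 4 lower and 1 higher at an unadjusted p under 0.05, against 10.8% and 3.71% of all features. In both replicates 5 were lower and 8 higher, against 30.2% and 35.4%. SIRT1, a deacetylase that acts on PGC-1alpha, had 0.86 ± 0.22 (limma adjusted p = 0.197), with 1.15, 0.88, 0.86 and 0.55 on the arrays. NRIP1, a corepressor of nuclear receptors, had 0.52 ± 0.56, of which 0.92 was in replicate 1 and 0.13 in replicate 2. The lowest were PHB2, a prohibitin of the inner membrane (-0.56 ± 0.09, limma adjusted p = 0.194), and YY1, a zinc finger factor (-0.27 ± 0.07). Further members of this list are named here after their values were seen. NRF1, a transcription factor of respiratory genes, had 0.00 ± 0.00 (95% interval -0.17 to 0.18), and GABPA, the DNA-binding subunit of GABP (NRF-2), 0.02 ± 0.06 (95% interval -0.18 to 0.21). GABPB1, the partner subunit of GABPA, had 0.14 ± 0.23, with 0.30 in replicate 1 and -0.02 in replicate 2, and its other probes gave 0.02 and -0.21. SP1 had 0.05 ± 0.00, with -0.02 from its other probe. The orphan receptor ESRRA had -0.25 ± 0.12 (limma adjusted p = 0.339). PPARGC1A, the coactivator PGC-1alpha, had 0.16 ± 0.25, with 0.22 from its other probe.

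Transcripts of mitochondrial DNA itself, the template of these factors, were matched by name for 8 of the 15 genes listed. The unmatched genes include both ribosomal RNAs. The matched genes had a median log2 ratio of -0.97, with -0.57 in replicate 1 and -1.30 in replicate 2. Limma called 0 of the 8, and 5 were lower and 0 higher at an unadjusted p under 0.05, against 10.8% and 3.71% of all features. In both replicates 5 were lower and 0 higher, against 30.2% and 35.4%. Of the others, MTND2, MTND4 and MTND5 were above 0 in replicate 1 (0.37, 0.19 and 0.10) and below it in replicate 2 (-0.37, -0.78 and -0.69). At least 2-fold lower in both replicates were 2 genes, against 0.240% of all features: MTND6, a complex I subunit (-1.87 ± 0.35, limma adjusted p = 0.191), and MTND3, another (-1.63 ± 0.72), whose other probe gave -0.70. The more negative values were in replicate 2 here and in replicate 1 for TFB2M and TFB1M. Nuclear copies of mitochondrial DNA could share these probes, so their values are uncertain. In cultured cells, less RNA per cell and fewer expressing cells cannot be told apart.

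**Figure D4:**
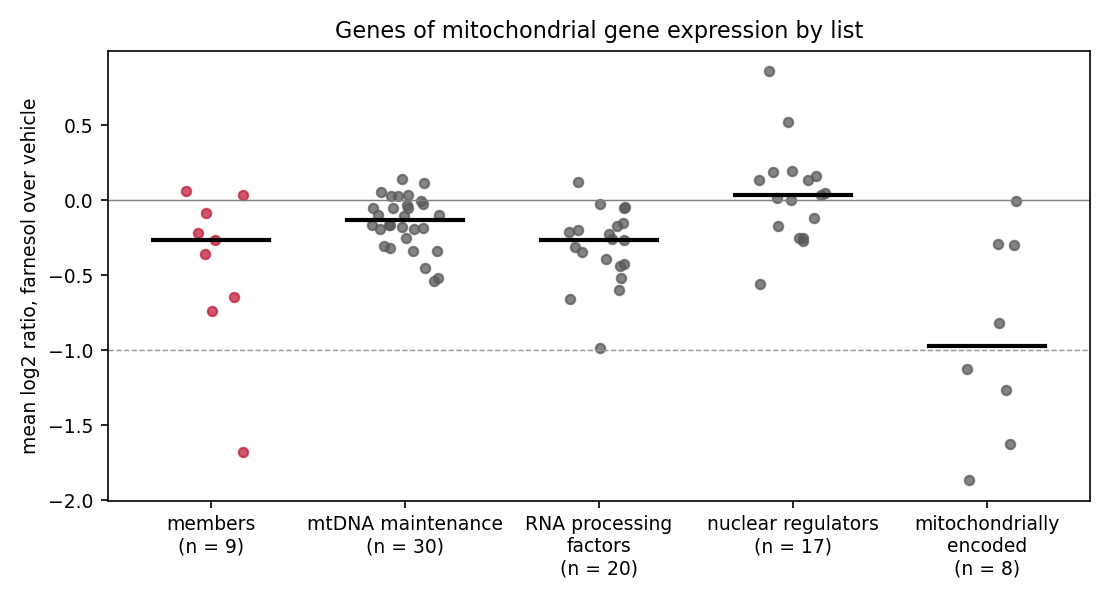
Mean log2 ratio of each gene, 1 point per gene, for the 9 members and the 4 further lists, with a bar at each list's median and a dashed line at 2-fold lower. The medians run from 0.04 for the nuclear regulators to -0.97 for the mitochondrially encoded genes, and TFB2M is the only member past the dashed line.

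Under 7 other settings of the processing the mean of TFB2M ran from -1.86 to -1.68. TFB2M was the 1 gene of the group at least 2-fold lower in both replicates under each of them. It has 1 probe, so only an offset of 0, processed signals and median centring could change its ratios. These gave -1.75, -1.79 and -1.86, while the other settings repeat the reported ratios of TFB2M and are no further support. Over the 7 settings TFB1M ran from -1.07 to -0.74, PEO1 from -0.83 to -0.50 and SSBP1 from -0.58 to -0.31. With the 4 arrays entered separately and the replicate as a random block, limma called 4 members lower (TFB2M, TFB1M, PEO1 and SSBP1, adjusted p 0.00451 to 0.0177), where 7.59% of all features were called lower. The same fit called, in either direction, 7 of the 20 transcription and RNA processing factors, 5 of the 30 upkeep genes, 3 of the 17 regulators and 5 of the 8 mitochondrially encoded genes. Among all 28302 features, 2869 were called in either direction by this fit. That fit draws part of its precision from dye-swapped arrays of the same RNAs, which are technical repeats.

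**Figure D5:**
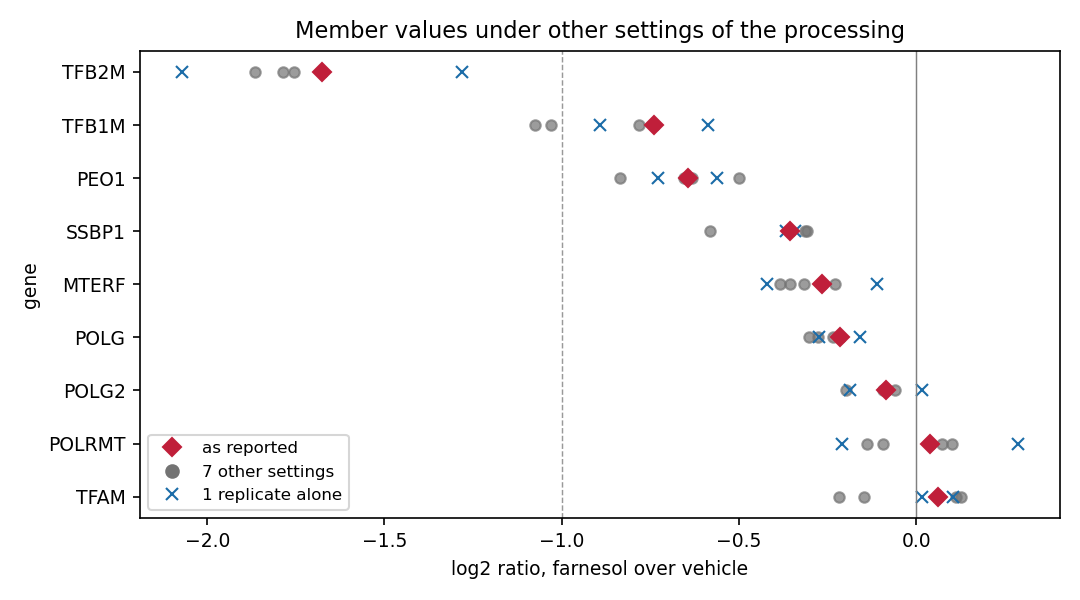
Mean log2 ratio of each of the 9 genes as reported (diamond), under 7 other settings of the processing (circles) and with 1 replicate alone (crosses); the dashed line is 2-fold lower. TFB2M is past the dashed line in every case, though several of its circles repeat the reported ratios. The values of POLRMT and TFAM lie on both sides of 0, and POLG2 is above 0 only with replicate 1 alone.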

How the data were processed

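RNA of H460 cells was measured on 4 two-colour Agilent arrays, read with Agilent Feature Extraction 8.1.1.1 per the file headers. As deposited, intensity values were each spot's mean and its local background median, uncorrected, and the deposited log10 ratio came from background-subtracted, dye-normalized signals, per the file headers. Flags for background, saturation and outliers were also taken as deposited. The authors deposited a list with a linear ratio and a p-value per probe, whose program is not given in the sources used here. Here, in R 4.3.3 with limma 3.58.1, background was corrected by normexp (offset 50) and ratios were normalized by loess, with control and outlying spots at weight 0 and then left out. Arrays with farnesol in Cy3 were turned and each dye-swapped pair was averaged (n = 2). A probe was tested if, for farnesol or for vehicle, each replicate had 1 or more arrays with that RNA's spot well above background. The brightest tested probe stood for its gene, in limma's moderated test against 0 with Benjamini-Hochberg adjustment over 28302 features. All 9 members were named. Of the lists, those 2-fold or more different in each replicate, in 1 direction, were named, and otherwise the 2 highest and 2 lowest, with the 3 genes nearest to TFB2M in pattern. Members and lists were chosen with earlier results of these data known. Older array names were matched for 8 list genes after the array's names were seen. No positions or sequences are given, since the reference tables used here were of the mouse.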

Additional observations from a re-analysis of the deposited data

How the results depend on the processing

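The count of members past limma's adjusted p of 0.05 was 0 under 6 of 7 alternative settings and 4 with the 4 arrays in the fit and the replicate as a random block. Under those 7 settings 1 member, TFB2M, stayed at least 2-fold lower in both replicates. For its 1 probe, only offset 0, processed signals and median centring could change the ratios. At an unadjusted p under 0.05, 3 to 6 members were lower over the 7 settings, the 6 with the random block. The share of all features at that threshold was not taken for these settings, so this range is no result about the members. The uncalled TFAM and POLRMT turned negative under median centring and under the mean of a gene's probes. Without replicate 1 or replicate 2, which leaves 1 replicate and no test, the members' median ran from -0.37 to -0.21, TFB2M from -2.07 to -1.28 and the count of 2-fold lower members was 1. Over all features the called count was 3 as reported, 73 with offset 0, 62 with processed signals, 25 with median centring and 2869 with the random block, and features at least 2-fold lower in both replicates numbered 68 as reported, 119 with offset 0, 151 with processed signals, 136 with median centring and 51 where each gene's probes were averaged. The reported test was already paired, because each ratio sets a farnesol RNA against its own vehicle RNA and there is 1 group of ratios. Signal over background limited SSBP1's second probe.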

Other observations

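In replicate 2 a group of 338 features (217 of them named) had log2 ratios between 0.9 and 1.3 while lying within 0.3 of 0 in replicate 1, and 0 of the 9 members were among them. The group was picked after the values were seen, and its source was not tested.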
